A study of Macaca fascicularis with 2 samples.

Results

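The enzymes of glycolysis, their muscle and non-muscle isoenzymes, the regulators of phosphofructokinase and the lactate transporters were followed in calf muscle of the cynomolgus macaque, Macaca fascicularis. The genes were a list of 37 symbols, and a gene was kept when the deposited files gave that symbol, which held for 33 of the 28162 gene symbols in the files. The other 4, FBP1, FBP2, LDHA and LDHC, were found only through their NCBI gene numbers, and their values are given apart. Gastrocnemius RNA was sequenced in 1 non-lean library, labelled with a high fat diet, and 1 lean library, labelled with a chow diet, to compare gene expression in lean and obese muscle. The labels used here give neither age nor sex, nor the number of animals behind a library. With 1 library per group there is no replicate check, no test was made, and differences between animals, sampling and library preparation cannot be told apart from diet and body condition.

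Glycolysis splits glucose into pyruvate in the cytosol, and muscle uses it for rapid contraction, feeding it from glycogen as well as from blood glucose. Most steps have several isoenzymes encoded by separate genes, of which one predominates in skeletal muscle and others in liver, brain, red cells or testis. Pyruvate is either oxidised in mitochondria or reduced to lactate, which leaves or enters the fibre through monocarboxylate transporters. Fast glycolytic fibres are known for high levels of most glycolytic enzymes, though not of every isoenzyme, and slow oxidative fibres for lower ones.

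The non-lean library held 12731973 counts and the lean library 15983348. The 33 genes together held 5.11% of all counts in the non-lean library, with an exact 95% binomial interval of 5.10 to 5.12, and 6.98% in the lean library (6.97 to 6.99). The tissue label was checked against fixed marker lists. Fast fibre markers summed to 117317 scaled CPM (counts per 1e6 counts of the scaled library) in the non-lean and 156212 in the lean library, and liver markers to 0.897 and 1.18. Of the liver markers, ALB, TTR and FGB were at 0 counts in the non-lean library, against 11, 2 and 1 in the lean library, and APOA1 had 12 in the non-lean and 4 in the lean library.

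The genes of glycolysis were lower in the non-lean library at nearly every step, although PGK1 and PFKFB1 changed direction when libraries were scaled by total counts. The largest differences lay in a brain aldolase, a myeloid hexokinase and a regulator, not in the main chain. Of the 33 genes, 32 averaged 1 scaled CPM or more across the pair of libraries and are called tested. PKLR was the exception, with 0 counts in the non-lean and 1 in the lean library. Ratios are given as log2 of non-lean over lean, with the 95% interval from counting error alone in square brackets. Of the 32 tested genes, 22 had intervals below 0, 3 above 0, and 7 held 0. Over all 13703 tested genes, 28.7% had intervals below 0 and 25.8% above. The 10 genes that averaged 1000 scaled CPM or more were GPI, PFKM, ALDOA, TPI1, GAPDH, PGK1, PGAM2, ENO3, PKM and PGM1, and all 10 had intervals below 0, where 61.9% of the 97 tested genes of that abundance did. With total counts those of PFKM and PGK1 no longer lay below 0. The interval of a gene with so many counts is narrow, so that even a small ratio excludes 0.

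Differences of at least 2-fold were few. ALDOC, PFKFB3, HK3 and PKM were at least 2-fold lower with an interval excluding 0, which is 4 of 32, beside 7.15% of all tested genes. No gene was at least 2-fold higher, beside 4.9% of all tested genes. No p-value exists for this comparison, and under DESeq2 size factors the number at least 2-fold higher was also 0. With the most abundant transcript model of each gene alone it was 1, PFKFB2, and 5 genes were at least 2-fold lower, HK3, PFKFB3, PFKFB4, ALDOC and GPD1L. The median log2 ratio of the 32 genes was -0.42, against -0.01 for all tested genes, whose quartiles were -0.39 and 0.34. Scaling by total counts lifts the median over all tested genes by 0.14 and changes the share of higher genes among all 2-fold calls to 56.0%, against 40.7%. With that scaling 18 of the 32 intervals lay below 0 and 3 above. The shares of all tested genes below and above 0 are not given here for that scaling.

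**Figure D1:**
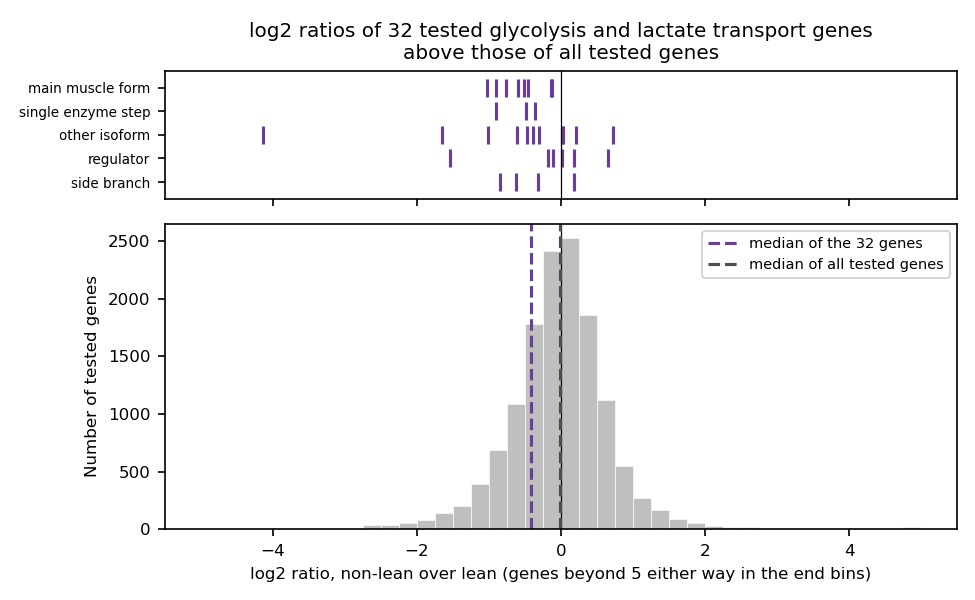
The upper panel marks the log2 ratio, non-lean over lean, of each of the 32 tested genes by role, and the lower panel is a histogram of the same ratio over all 13703 tested genes, with both medians as dashed lines. The median of the 32 genes is -0.42 and that of all tested genes -0.01, and ALDOC stands alone at -4.14.

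Glucose is trapped in the cell by hexokinase. HK2, the insulin-responsive muscle form, had 50 counts in the non-lean and 97 in the lean library, or 3.74 and 6.37 scaled CPM, and was 1.70-fold lower, at -0.76 [-1.29, -0.26]. HK1, the form found in most tissues, had 2239 and 3333 counts and was lower at -0.39 [-0.47, -0.31]. Both forms were lower in the non-lean library, and HK2 held 2.17% of the hexokinase counts there (1.62 to 2.86) and 2.80% in the lean library (2.27 to 3.40), shares that are not corrected for transcript length. By counts HK1, not the muscle form HK2, was thus the main hexokinase in both libraries. The balance of HK2 to HK1 gave a log2 ratio of ratios, the HK2 to HK1 ratio in the non-lean over that in the lean library, of -0.38 [-0.88, 0.12], so no shift was detectable at this depth. Such a ratio of ratios does not depend on library scaling. Transcript length cancels in it only where each gene divides alike among its transcript models in both libraries.

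HK3, a hexokinase known from myeloid cells, had 10 counts in the non-lean and 37 in the lean library and was 3.14-fold lower, at -1.65 [-2.87, -0.66]. Macrophage markers were lower beside it. They summed to 38.7 scaled CPM in the non-lean and 132 in the lean library. Of the 10 tested macrophage markers 9 were at least 2-fold lower, beside 7.15% of all tested genes. Neutrophil markers summed to 38 and 20 counts, with S100A12 and CXCR2 at 0 in both. In bulk tissue fewer cells of a type and less RNA per cell cannot be told apart, and the part of either cell type in the HK3 difference was not tested. In the reference assembly HK3 overlaps UNC5A, which had 99 and 123 counts, and reads of overlapping genes cannot be told apart by strand here. GPI, which turns glucose 6-phosphate into fructose 6-phosphate, has no isoenzyme. It had 13204 counts in the non-lean and 28008 in the lean library and was 1.86-fold lower, at -0.90 [-0.93, -0.87].

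Phosphofructokinase is the first committed step of glycolysis. Its muscle gene PFKM had 22561 counts in the non-lean and 28378 in the lean library, or 1687 and 1865 scaled CPM, a log2 ratio of -0.14 [-0.17, -0.12]. This was one of the smallest differences of the main chain, and with total counts it was -0.0028 and its interval held 0. PFKL, the liver form, had 188 and 298 counts and was lower at -0.48 [-0.75, -0.21], while PFKP, the platelet form, had 115 and 113 counts and a ratio of 0.21 [-0.18, 0.60], which turned to -0.49 in its most abundant transcript model. The muscle form took 98.7% of phosphofructokinase counts in the non-lean and 98.6% in the lean library. Within the step, the PFKM to PFKL balance lay higher in the non-lean library, at 0.33 [0.07, 0.60], and that of PFKM to PFKP was -0.36 [-0.73, 0.02].

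Fructose 2,6-bisphosphate switches phosphofructokinase on, and the 4 bifunctional enzymes of the PFKFB family make and remove it. PFKFB3, the form with the highest ratio of kinase to phosphatase activity, inducible by hypoxia and growth signals, had 1091 counts in the non-lean and 3617 in the lean library. In scaled CPM it stood at 81.6 and 238, a log2 ratio of -1.54 [-1.64, -1.44], or 2.91-fold lower, and -2.48 in its most abundant transcript model. PFKFB1, the liver and muscle form, had 1691 and 2085 counts, at -0.12 [-0.21, -0.02], a direction that turned to 0.026 with total counts and to 0.010 in its most abundant transcript model. PFKFB2, the heart form, had 104 and 75 counts and was higher at 0.66 [0.22, 1.11], or 1.63 in its most abundant transcript model. PFKFB4 had 48 counts in each library, a ratio of 0.19 [-0.42, 0.79], but its most abundant model gave -1.06 [-1.91, -0.30].

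The 4 PFKFB genes therefore divided differently in the libraries. PFKFB3 took 37.2% of their counts in the non-lean library (35.4 to 39.0) and 62.1% in the lean library (60.8 to 63.3), and PFKFB1 took 57.6% (55.8 to 59.4) and 35.8% (34.6 to 37.0). In the non-lean library the PFKFB3 to PFKFB1 ratio was 2.69-fold lower, with a log2 ratio of ratios at -1.43 [-1.56, -1.29]. TIGAR, which lowers fructose 2,6-bisphosphate, had 57 counts in the non-lean and 64 in the lean library and a ratio of 0.02 [-0.52, 0.56]. A pseudogene that overlaps TIGAR in the reference assembly had 158 and 144 counts. Over the 6 regulators, which include HIF1A, the median ratio was -0.05 and it was 0.09 with total counts.

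Fructose bisphosphatase works against phosphofructokinase. FBP2, its muscle gene, was found through its gene number and had 7385 counts in the non-lean and 8841 in the lean library, a ratio of -0.07 [-0.12, -0.03]. FBP1, the liver gene found the same way, had 5 counts in the non-lean and 1 in the lean library, and the FBP2 to FBP1 balance was -2.58 [-5.68, 0.52]. Both libraries thus carried fructose bisphosphatase almost only as the muscle form, with FBP1 at 0.068% of the counts of the step in the non-lean and 0.011% in the lean library.

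Aldolase cuts the hexose into a pair of trioses. ALDOA, the muscle form, had 118417 counts in the non-lean and 252263 in the lean library, or 8856 and 16575 scaled CPM, and was 1.87-fold lower, at -0.90 [-0.91, -0.89]. ALDOC, the form of brain and nerve, had 23 counts in the non-lean and 472 in the lean library and was 17.7-fold lower, at -4.14 [-4.84, -3.57]. Only 0.09% of all tested genes had a lower log2 ratio. In the non-lean library the ALDOA to ALDOC ratio was 9.63-fold higher, with a log2 ratio of ratios at 3.27 [2.66, 3.87]. ALDOC held 0.019% of aldolase counts in the non-lean and 0.19% in the lean library, so that it had little weight in the step total, at -0.91 [-0.92, -0.90].

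ENO2, the neuronal enolase, had 11 counts in the non-lean and 26 in the lean library, a ratio of -1.02 [-2.22, 0.01] that held 0. Nerve and Schwann cell markers summed to 54.1 scaled CPM in the non-lean and 102 in the lean library. Of the 10, 4 were tested, 2 intervals lay below 0, MBP at -1.12 and PMP22 at -0.92, and none above. Of all tested genes, 28.7% lay below 0 and 25.8% above. Of the neuronal markers, which were too low to be tested, NEFM had 13 counts in the non-lean and 3 in the lean library, and NEFL and TUBB3 had 1 each in the non-lean library, against 0 and 2 in the lean library. The part of nerve tissue in the ALDOC difference was not tested.

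**Figure D2:**
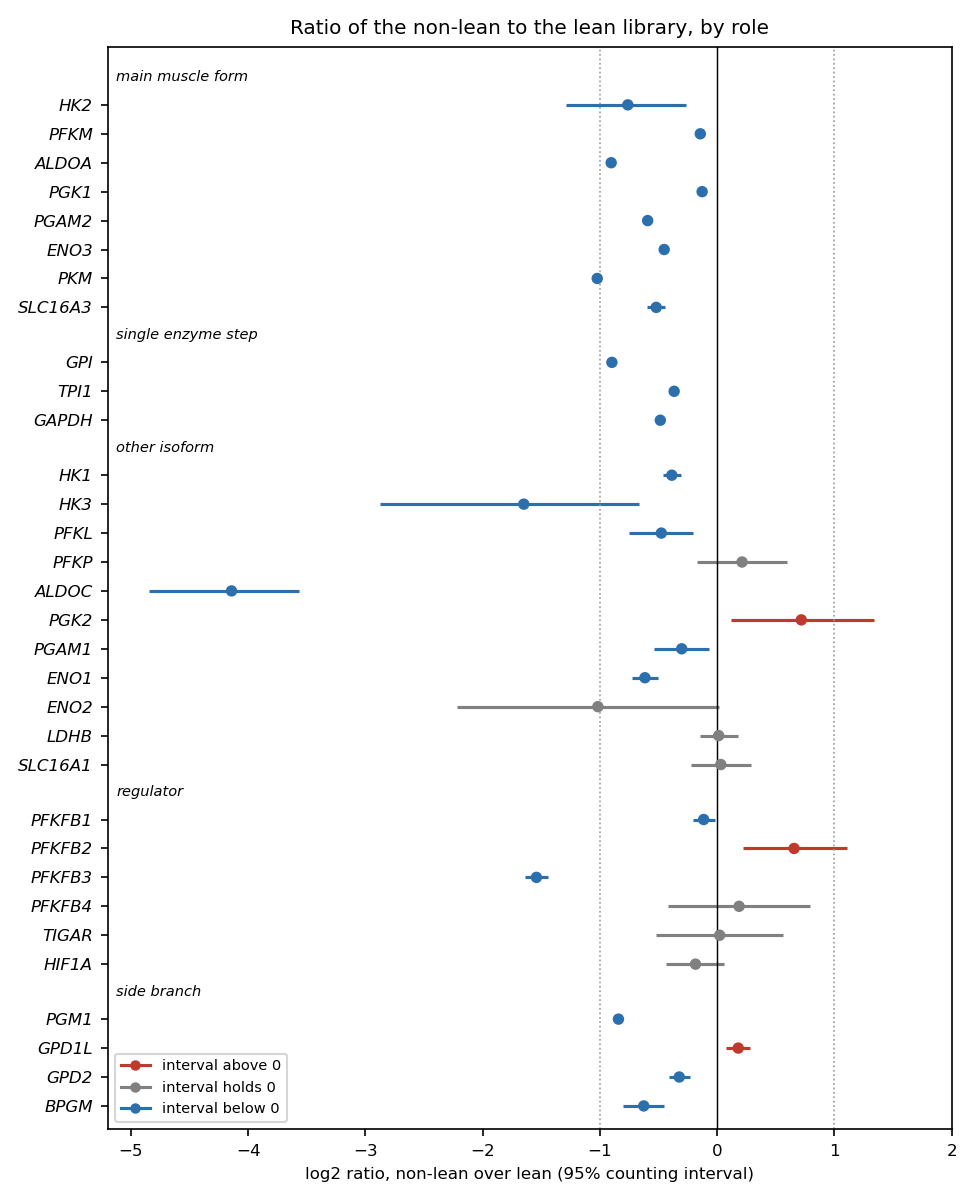
Points are log2 ratios, non-lean over lean, and bars are 95% counting intervals, for the 32 tested genes grouped by role, with dotted lines at 2-fold either way. All 8 main muscle forms and all 3 single enzymes lie left of 0, from PKM at -1.02 to PGK1 at -0.13, which turned to 0.013 with total counts, and ALDOC at -4.14 and PFKFB3 at -1.54 lie far from their groups. HK2 is grouped with the main muscle forms, although HK1 had more counts in both libraries.

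The steps after aldolase handle trioses. TPI1, which interconverts the trioses, had 46915 counts in the non-lean and 68871 in the lean library and was lower at -0.37 [-0.38, -0.35]. GAPDH, the step that reduces NAD, had 256543 and 408756 counts, or 19186 and 26858 scaled CPM, and was 1.40-fold lower, at -0.49 [-0.49, -0.48]. Its ratio was -0.34 with total counts and -0.35 [-0.36, -0.34] in its most abundant transcript model. GAPDH alone was 39.4% of the counts of the 33 genes in the non-lean library and 36.7% in the lean library. Processed copies of GAPDH and of several other glycolytic genes are known in primate genomes, and estimated counts divide reads among near-identical sequences, so these values depend on that division.

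PGK1, the phosphoglycerate kinase of somatic cells, which makes the first ATP of the pathway, had 15719 counts in the non-lean and 19559 in the lean library. Its ratio was -0.13 [-0.16, -0.10] and it turned to 0.013 with total counts. PGK2, the testis form, had 58 and 40 counts and lay above 0 at 0.72 [0.12, 1.34], the highest ratio among the 32 genes. PGAM2, the muscle phosphoglycerate mutase, had 29225 and 50179 counts and was 1.51-fold lower, at -0.59 [-0.61, -0.57]. PGAM1, the form of most other tissues, had 252 and 354 counts and was lower at -0.30 [-0.54, -0.07]. In both steps the balance of main to other form was lower in the non-lean library, at -0.85 [-1.43, -0.27] for PGK1 to PGK2 and at -0.29 [-0.52, -0.06] for PGAM2 to PGAM1.

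Enolase makes phosphoenolpyruvate. ENO3, the muscle form, had 91592 counts in the non-lean and 142639 in the lean library, or 6850 and 9372 scaled CPM, and was 1.37-fold lower, at -0.45 [-0.46, -0.44]. ENO1, the form of most tissues, had 1001 and 1747 counts and was 1.53-fold lower, at -0.62 [-0.73, -0.50]. The ENO3 to ENO1 balance was slightly higher in the non-lean library, at 0.16 [0.05, 0.28], but with the most abundant transcript model of each gene alone it was -0.04 [-0.16, 0.09]. The muscle form took 98.9% of enolase counts in the non-lean and 98.8% in the lean library.

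Pyruvate kinase, which makes the second ATP and releases pyruvate, was the main-chain step furthest down. PKM, the gene of the forms in muscle and most tissues, had 29349 counts in the non-lean and 67894 in the lean library, or 2195 and 4461 scaled CPM, and was 2.03-fold lower, at -1.02 [-1.04, -1.00]. The 2-fold mark was passed by little, since with total counts the ratio was -0.88. PKLR, the liver and red cell gene, was at 0 counts in the non-lean library and 1 in the lean library. A count of 0 allows up to 0.224 scaled CPM in the non-lean library.

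**Figure D3:**
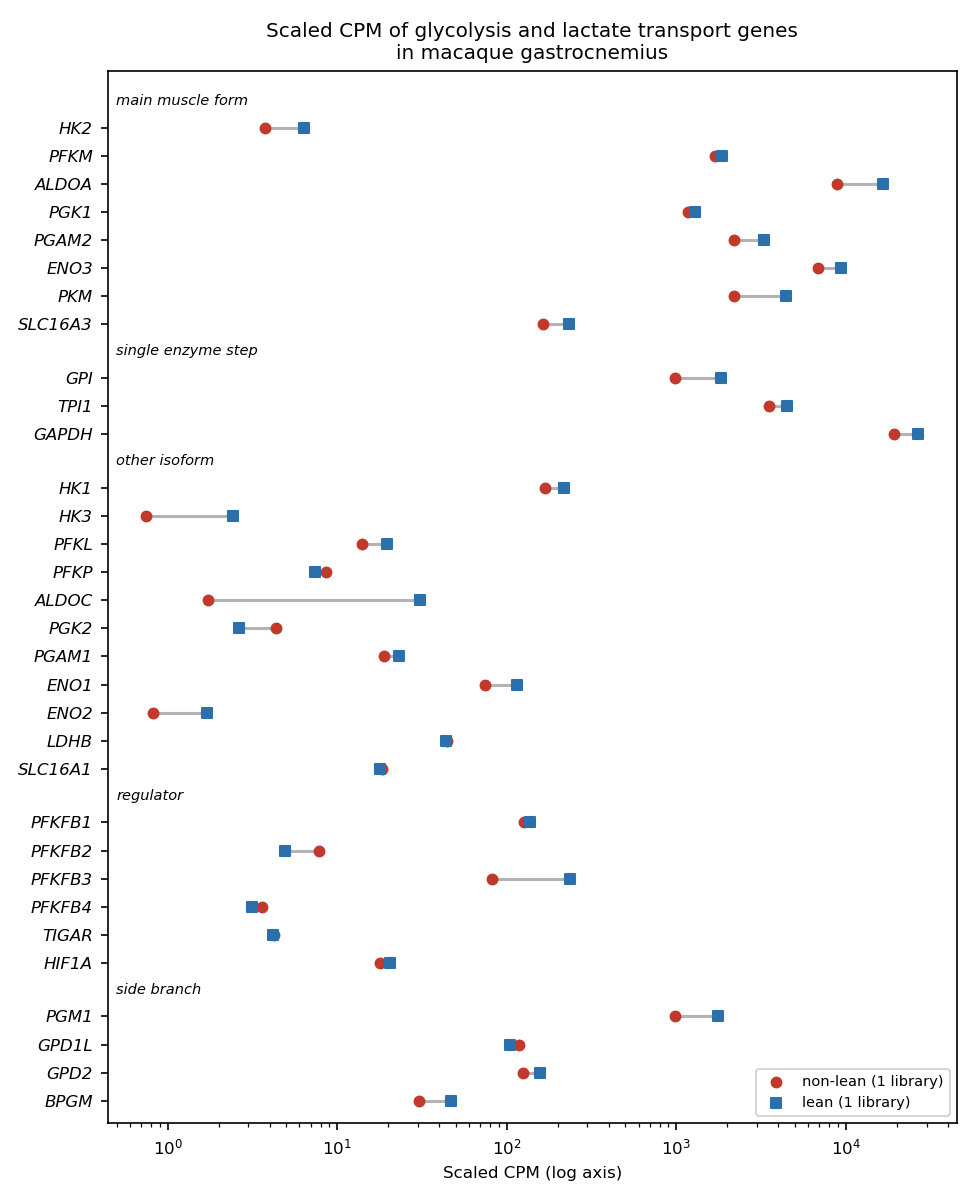
Scaled CPM of the 32 tested genes in the non-lean (circles) and the lean library (squares) on a log axis, by role, with a grey line joining the values of a gene. The levels are not corrected for transcript length, so the gap between the symbols of one gene can be read but not the order of different genes. The gap is widest for ALDOC, at 1.72 in the non-lean and 31.0 in the lean library.

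Lactate dehydrogenase turns pyruvate into lactate and back. LDHB, the heart form, had 592 counts in the non-lean and 668 in the lean library and a ratio of 0.01 [-0.15, 0.17]. LDHA, the muscle form found through its gene number, had 28658 and 40876 counts and was lower at -0.33 [-0.35, -0.30]. The reference assembly places that gene number inside the span of MYCBP2 at a locus far shorter than those of LDHB and LDHC, so LDHA counts may be those of a copy and are uncertain. LDHC, the testis form found the same way, had 119 and 243 counts, at -0.84 [-1.17, -0.52]. The LDHA to LDHB balance lay lower in the non-lean library, at -0.34 [-0.50, -0.18], and that of LDHA to LDHC higher, at 0.52 [0.20, 0.83], within the same uncertainty.

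The lactate transporters differed in their balance. SLC16A3, which encodes MCT4, the exporter of fast glycolytic fibres, had 2190 counts in the non-lean and 3575 in the lean library, or 164 and 235 scaled CPM. It was 1.43-fold lower, at -0.52 [-0.60, -0.44]. SLC16A1, which encodes MCT1, the carrier of oxidative fibres, had 245 and 273 counts and a ratio of 0.03 [-0.22, 0.28], or 0.32 [0.05, 0.60] in its most abundant transcript model. SLC16A3 took 89.9% of the counts of the pair in the non-lean library (88.7 to 91.1) and 92.9% in the lean library (92.0 to 93.7). In the non-lean library the SLC16A3 to SLC16A1 ratio was 1.46-fold lower, with a log2 ratio of ratios at -0.55 [-0.81, -0.29]. BSG, the chaperone that both transporters need at the membrane, had 5916 and 6176 counts and was higher at 0.12 [0.07, 0.18], whereas its relative EMB had 17 and 63 counts and was 3.19-fold lower.

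**Figure D4:**
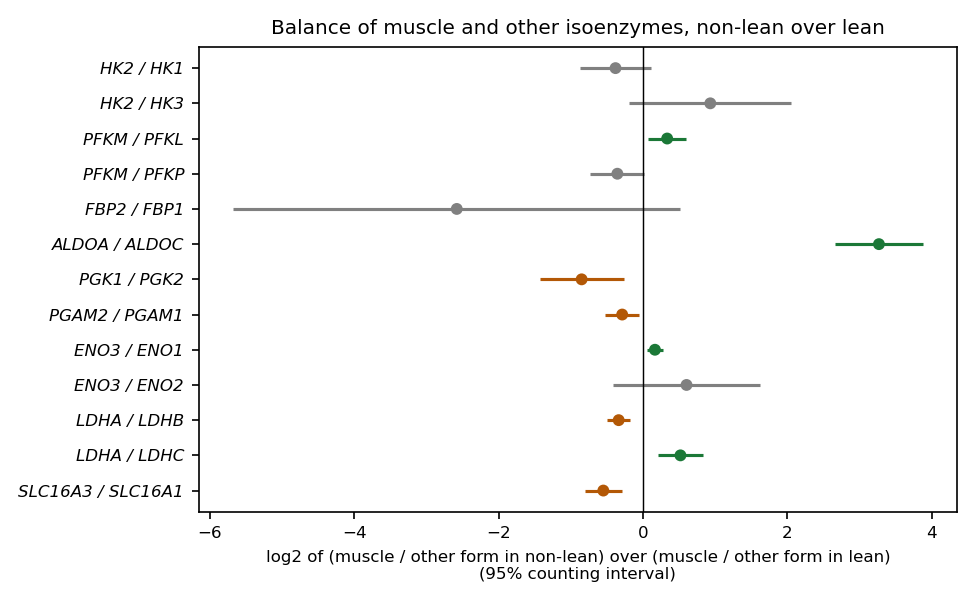
Each point is the log2 of the muscle to other isoenzyme count ratio in the non-lean library over the same ratio in the lean library, with its 95% counting interval, green above 0, orange below 0 and grey where it holds 0. ALDOA to ALDOC lies at 3.27, PFKM to PFKL, ENO3 to ENO1 and LDHA to LDHC lie above 0 by less, and PGK1 to PGK2, PGAM2 to PGAM1, LDHA to LDHB and SLC16A3 to SLC16A1 lie below 0.

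Genes on side branches were lower with 1 exception. PGM1, which brings glucose from glycogen into glycolysis, had 13118 counts in the non-lean and 26771 in the lean library and was 1.79-fold lower, at -0.84 [-0.87, -0.81], close to GPI, the next enzyme on that route. BPGM, which makes the 2,3-bisphosphoglycerate of red cells, had 409 and 719 counts and was 1.54-fold lower, at -0.63 [-0.81, -0.45]. Red cell markers were low in both, as HBB had 71 and 59 counts, ALAS2 had 1 and 0, and SLC4A1 had 0 in both libraries. GPD2, the mitochondrial enzyme of the glycerol phosphate shuttle, had 1670 and 2379 counts, at -0.32 [-0.41, -0.23], or -0.03 [-0.15, 0.08] in its most abundant transcript model. GPD1L, a relative of the cytosolic shuttle enzyme, had 1580 and 1588 counts and was higher at 0.18 [0.08, 0.28].

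Both libraries have transcript-level values, and for a few genes the division among transcript models differed more than the gene. PFKFB3 had 265.51 estimated counts in its most abundant model in the non-lean and 1691.68 in the lean library, but 726.2 and 989.63 in the next. ALDOC had 0 and 283.5 in its most abundant model, 60.1% of its lean counts, and all 4 of its models above 1 count in the lean library were lower in the non-lean library. GPD1L had 589.74 and 1503.46 in its leading model but 990.25 and 84.04 in the next, so that its leading model alone gave -1.16 where the gene gave 0.18. HIF1A had 241 counts in 1 model in the non-lean library, while in the lean library 64.6% lay in that model and 35.1% in another, so that its leading model alone gave 0.44 where the gene gave -0.19. The division among models is an estimate and its error is not given in the sources used here. Of the 11 genes with a single model, 9 had intervals below 0, beside 28.7% of all tested genes. Of the tested genes averaging 1000 scaled CPM or more, 61.9% did.

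**Figure D5:**
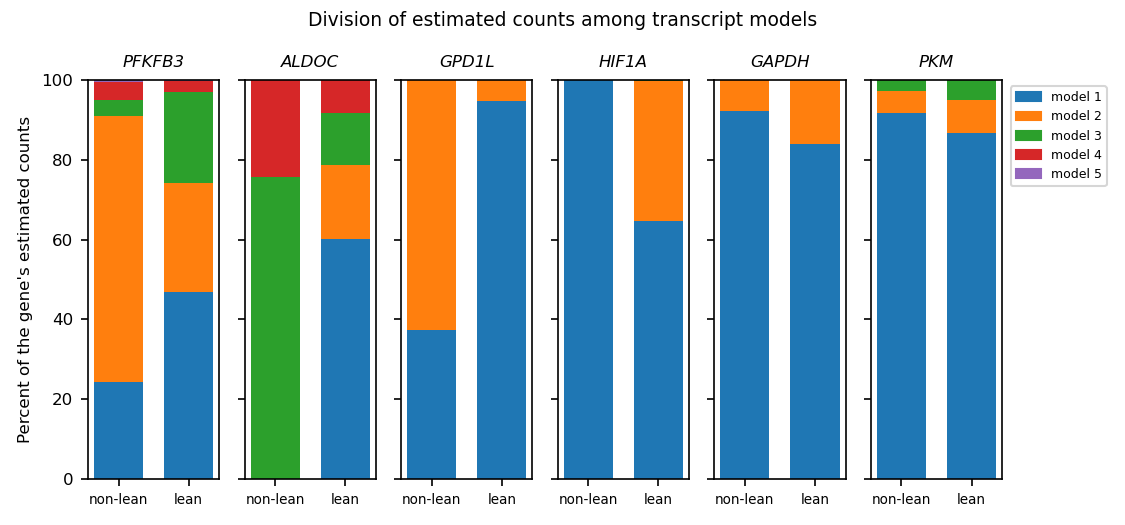
Bars divide the estimated counts of 6 genes among their transcript models, numbered from the most abundant over both libraries, as percent of the gene in the non-lean (left) and the lean library (right). The leading model of GPD1L holds 37.3% in the non-lean and 94.7% in the lean library, and that of ALDOC 0% and 60.1%, while GAPDH and PKM keep the same leading model in both.

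Markers of fibre type differed too. Of 13 tested fast fibre markers, 11 had intervals below 0 and 2 above, with a median of -0.34. Of 12 tested slow fibre markers 2 lay below and 9 above, with a median of 0.73. Of all tested genes 28.7% lay below 0 and 25.8% above, and of those averaging 1000 scaled CPM or more 61.9% lay below. With total counts the fast markers numbered 8 below and 4 above. The summed slow markers stood at 17858 scaled CPM in the non-lean and 10357 in the lean library. ACTN3, an actin-binding protein of fast glycolytic fibres, was lower at -1.03 and MYH1, a fast myosin, at -0.93, while MYH2, the myosin of fast oxidative fibres, was at -0.05. The fast markers ranged from MYH4 at -1.34 to TNNI2 at -0.04, TNNC2 at 0.12 and MYLPF at 0.13. Of the slow markers, CASQ2 and ANKRD2 were lower at -3.32 and -1.08, while TNNT1 was highest at 1.11. The ratios of ALDOA, GPI, PGM1 and PKM lay between -1.02 and -0.84, and those of PFKM, PGK1 and FBP2 between -0.14 and -0.07. PGAM2, GAPDH, ENO3 and TPI1 lay in the middle, between -0.59 and -0.37. Connective tissue and vessel markers were lower too. Fibroblast markers summed to 438 scaled CPM in the non-lean and 1032 in the lean library with 7 of 7 intervals below 0, endothelial markers to 180 and 244 with 5 of 6 below, and adipocyte markers to 174 and 194 with 5 of 7 below and 1 above. Most of the adipocyte sum was CFD, at 109 in the non-lean and 108 in the lean library, while the median log2 ratio of the 7 was -2.38 and ADIPOQ, PLIN1, CIDEC and CIDEA were 11.7-fold, 6.22-fold, 6.28-fold and 5.19-fold lower. The part of fibre composition or of these cell types in the glycolysis differences was not tested.

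Neighbouring pathways were described from fixed lists. Of 17 tested genes of glucose entry and of isoenzymes outside the list, 8 had intervals below 0 and 4 above. Of all tested genes, 28.7% lay below 0 and 25.8% above. The median of the 17 genes was -0.35, and with total counts 6 lay below and 7 above. SLC2A4, the insulin-regulated glucose transporter of muscle, had 8389 counts in the non-lean and 9030 in the lean library and was higher at 0.08 [0.04, 0.12]. SLC2A12, another glucose transporter, had 34 and 93 counts and was 2.38-fold lower. PGM2L1 and PGM2, relatives of PGM1, were 2.69-fold and 2.25-fold lower, whereas GAPDHS, the sperm form of GAPDH, had 190 and 163 counts and was highest in that list at 0.41, followed by G6PC3 at 0.34.

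Genes of the routes that take pyruvate and NADH into mitochondria lay mostly at or above 0. Of the 8 genes of the cytosolic NADH shuttles, 5 had intervals above 0, beside 25.8% of all tested genes, and 3 held 0. Their median was 0.13, and under DESeq2 size factors 5 lay above 0 and 1 below. Most of the 8 had many counts, so that even a small ratio excludes 0. The share above 0 among genes of like abundance is not given here. GPD2, which belongs to such a shuttle but is counted among the glycolysis genes, lay below 0. MDH1 and MDH2, the malate dehydrogenases of cytosol and mitochondria, were at 0.38 and 0.33, and the aspartate carrier SLC25A12 was at 0.37, while its relative SLC25A13 and the transaminase GOT1 were at -0.25 [-0.97, 0.45] and -0.04 [-0.10, 0.02]. MPC1 and MPC2, the subunits of the mitochondrial pyruvate carrier, were higher at 0.16 [0.04, 0.28] and 0.37 [0.27, 0.46]. In the list of lactate and pyruvate carriers 3 of 11 tested genes lay below 0, beside 28.7% of all tested genes, among them EMB and SLC16A14, which was 2.08-fold lower, and 4 above, of which SLC16A7 had the highest ratio, 0.53 [0.00, 1.07]. A further tested gene of that list, SLC16A9, had a ratio of 0.61 that held 0. In the pentose phosphate pathway 3 of 10 tested genes lay below 0 and none above, where 28.7% of all tested genes lay below 0 and 25.8% above. TKT, its transketolase, was 2.50-fold lower with 106 and 303 counts and PGLS was lower at -0.68, and the highest ratios, 0.53 for SHPK and 0.23 for RPE, had intervals that held 0.

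HIF1A, the oxygen-regulated factor that drives many glycolytic genes, had 241 counts in the non-lean and 312 in the lean library and a ratio of -0.19 [-0.43, 0.06]. It acts largely through protein stability, which these data do not measure. Of 19 tested targets of the hypoxia factors outside glycolysis, 8 had intervals below 0 and 5 above. Of all tested genes, 28.7% lay below 0 and 25.8% above. The median of the 19 targets was -0.10 and turned to 0.04 with total counts. CA12 was lowest, 9.80-fold lower with 6 and 72 counts, and NDRG1 was 2.47-fold lower, while ANKRD37 was higher at 0.80 and CA9 had a ratio of 0.99 [-0.03, 2.11]. VEGFA, the vessel growth factor, had 1965 and 1444 counts, at a ratio of 0.63. Of 11 tested regulators of the pathway 6 lay below 0 and 4 above, from VHL at -0.76 and CREBBP at -0.72 to EGLN3 at 0.31 and ARNT2, 2.08-fold higher with 70 and 38 counts. The median of the 11 regulators was -0.31, against -0.01 for all tested genes. With total counts their median was -0.16, and 4 lay below 0 and 4 above. Targets and regulators thus lay on both sides of 0, and their part in the glycolysis differences was not tested.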

How the data were processed

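Per the file headers, each deposited file gives expected counts, which are estimated read counts for RefSeq transcripts and can be fractional. They were deposited without normalisation. Trim Galore 0.6.6, STAR 2.7.8a and also RSEM 1.3.3 appear in the submitters' processing notes, with no role stated. Genome build and annotation release: not given in the sources used here. Per the labels' protocols, poly(A) RNA was copied from random hexamers, and no strand-marking step is named, so overlapping genes cannot be told apart by strand.

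The 76183 transcript values were summed per gene symbol and rounded. FBP1, FBP2, LDHA, LDHC and 4 genes of other lists (ENO4, MYH1, MYH2 and MYH4) were matched by NCBI gene number in a RefSeq table of assembly T2T-MFA8v1.1. PGAM4, MYH7, MYL11, HBA1, HBA2 and HBD were not matched and are not analysed here.

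Library sizes were scaled with TMM, the trimmed mean of M-values, by edgeR 4.0.16 (R 4.3.3), with factors of 1.05 for the non-lean and 0.952 for the lean library. Ratios used a prior count of 0.5 and exact Clopper-Pearson intervals of the binomial split at 95% (scipy 1.17.1, numpy 2.4.6 and pandas 2.3.3 under Python 3.11.15). Ratios of ratios used normal intervals on the log scale. As PCR copies carry no molecular identifiers, intervals and floors (3 counts) cover counting error only. A gene was tested at a mean of 1 scaled CPM or more and counted as apart at 2-fold with an interval excluding 0. The functions were tested on simulated data. Figures used matplotlib 3.10.9.

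The genes, lists and the rule for naming them were chosen with earlier results of these data known. Every listed glycolysis gene could be named, as could the 2 highest, the 2 lowest and all 2-fold genes of other lists and any marker. SLC2A4, BSG, MPC1, MPC2, MDH2 and VEGFA were named after their values were seen. A few genes of these lists are not reported here by name. Alternatives were other scalings (total counts, DESeq2 1.42.0 size factors, totals without the 10 most abundant genes), a prior count of 5, other filters and the leading transcript model.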

Additional observations from a re-analysis of the deposited data

How the results depend on the processing

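No paired analysis was possible because each group holds 1 library. The comparison with genes of like coding length was not run, as no transcript or protein lengths were given. With total counts in place of TMM the median log2 ratio of the tested glycolysis genes was -0.28, against -0.42, and 2 genes turned direction, PFKFB1 at 0.026 and PGK1 at 0.013. The genes at least 2-fold lower numbered 3 to 5 under the settings run. The genes at least 2-fold higher numbered 0 with every scaling, prior count and filter run, and 1 with the most abundant transcript model alone, a count added after seeing the data. PKM was no longer 2-fold lower with total counts, nor with totals that leave out the 10 most abundant genes of either library. With the most abundant transcript model alone 5 genes changed sign, PFKFB1 to 0.010, GPD1L to -1.16, PFKP to -0.49, PFKFB4 to -1.06 and HIF1A to 0.44, and the cause was not tested. The last 3 had gene intervals that held 0. Under it PFKFB2 was at 1.63, PFKFB3 at -2.48 and PKM, no longer 2-fold lower, at -0.94, and the ENO3 to ENO1 balance turned to -0.04 and that of PFKM to PFKP to 0.43, both with intervals that held 0. Without the most abundant genes in both sums, GAPDH and ALDOA among them, the glycolysis genes took 2.85% of the non-lean and 4.04% of the lean library, values set by the genes removed.

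With the most abundant transcript model of each gene alone, the muscle share of counts moved past its counting interval for phosphofructokinase, to 99.0% in the non-lean library, for aldolase, to 100% in the non-lean and 99.9% in the lean library, for enolase, to 99.1% in both, for lactate dehydrogenase, to 98.1% and 98.3%, and for fructose bisphosphatase, to 100% in the lean library. The causes were not tested. Including FBP1, FBP2, LDHA and LDHC, an alternative chosen after seeing the data, gave 25 of 35 intervals below 0 and a median of -0.39. Depth limits the genes below 100 counts, such as HK2, ENO2 and PFKFB4, whose intervals span more than 1 on the log2 scale.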
